A study of Mus musculus with 6 samples.

Results

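The genes described here carry Nodal and bone morphogenetic protein (BMP) signals in mouse embryonic stem cells, which are grown from the early embryo and can form every tissue of the body. They are 10 genes, Nodal, Lefty1, Tdgf1, Bmp4, Bmpr1a, Smad1, Smad7, Id1, Id2 and Id3, and were picked from a list of names. The list was chosen with earlier results of these data known. Every probe set whose annotation gives 1 of these symbols, current or older, was taken. All 10 genes were on the array, with 13 of its 12488 probe sets, and none of these probe sets is listed with a second gene. Expression was measured on 6 single-channel arrays hybridised with RNA from exponentially growing cultures: 2 arrays of wild-type cells and 2 of each of 2 lines, called line 1 and line 2 here, that are triple null for the linker histone genes H1c, H1d and H1e (now H1f2, H1f3 and H1f4). The comparison asks how the genes behave in cells without these 3 linker histones, chromatin proteins that bind nucleosomes and the DNA between them. With 1 wild-type group, loss of these histones cannot be told apart from other differences between that group and the null lines. Strain, sex, culture medium, feeder cells and whether each null line is 1 clone are not given in the sources used here. The sample titles give the arrays of each line an experiment number, 1 or 2, used here as the replicate number. It is not stated if 2 arrays of 1 line stand for 2 cultures, or if the number marks a shared batch. The p-values therefore reflect how far these arrays differ within a line, which may be technical scatter alone.

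Nodal and the BMPs are secreted ligands of the transforming growth factor beta family. Each binds a pair of receptor kinases at the cell surface, which phosphorylate Smad proteins, and these enter the nucleus with Smad4 and switch genes on or off; Nodal needs the co-receptor Tdgf1 (Cripto), is held back by the Lefty proteins and acts through Smad2 and Smad3, whereas Bmp4 acts through receptors such as Bmpr1a and through Smad1 and its relatives. The Id genes are among the best known targets of BMP signals. Id proteins lack a DNA-binding region and pair with basic helix-loop-helix factors, which keeps those off DNA, and in mouse embryonic stem cells BMP with Id proteins works beside leukaemia inhibitory factor in holding back differentiation, while Nodal signals take part in the exit towards mesoderm and endoderm.

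No member probe set passed the test between null and wild-type cells. Signals of Nodal, Bmp4 (by 1 of its 2 probe sets) and Id2 lay lower on all 4 null arrays than on both wild-type arrays, by 1.24-fold, 1.38-fold and 1.25-fold, and none of the 3 passed a threshold of 0.05 on the adjusted p. The null arrays lay wholly below wild type for 12.0% of all probe sets tested and wholly above for 11.0%. The signals of Id1, Id3 and Smad7 had mean log2 changes between -0.03 and 0.06. For 11 of the 12 probe sets tested, the 95% interval of the change in the average of the null lines lay within 2-fold in either direction, as it did for 92.2% of all probe sets tested.

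The null arrays of Nodal, Id2 and 1 of the 2 Bmp4 probe sets all lay lower than wild type, and those of Id3 did not. Sequences 5' of the start sites of these genes are printed here. They show where letters that a Smad or its partner is known to read occur close to the start sites. A link of these letters to the signals was not tested. Each is the 250 bases before the start site, on the strand of the gene, from RefSeq with build GRCm38.p6. They lie at chr10:61417722-61417971 (+) for Nodal, chr14:46390670-46390919 (-) for Bmp4, chr12:25096093-25096342 (-) for Id2 and chr4:136143572-136143821 (+) for Id3. Capitals mark the letters searched for on both strands: GGCGCC, a GC-rich element of BMP-responsive genes, CAGAC, the core of a Smad-binding element, and AATNNACA, the element of the Smad partner Foxh1.
Nodal: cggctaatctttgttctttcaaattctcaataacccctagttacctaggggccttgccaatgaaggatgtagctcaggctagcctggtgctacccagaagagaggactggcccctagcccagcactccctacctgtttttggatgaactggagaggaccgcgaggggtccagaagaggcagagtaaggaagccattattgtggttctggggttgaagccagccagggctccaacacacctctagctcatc
Bmp4: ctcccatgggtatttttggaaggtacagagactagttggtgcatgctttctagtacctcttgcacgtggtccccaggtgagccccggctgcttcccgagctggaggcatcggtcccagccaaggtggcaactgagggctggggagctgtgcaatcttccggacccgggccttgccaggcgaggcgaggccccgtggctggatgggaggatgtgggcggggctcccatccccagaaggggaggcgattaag
Id2: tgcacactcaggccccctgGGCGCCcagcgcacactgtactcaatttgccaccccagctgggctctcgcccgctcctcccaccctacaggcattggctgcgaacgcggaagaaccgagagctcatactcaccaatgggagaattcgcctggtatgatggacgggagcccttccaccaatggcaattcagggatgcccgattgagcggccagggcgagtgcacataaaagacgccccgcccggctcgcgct
Id3: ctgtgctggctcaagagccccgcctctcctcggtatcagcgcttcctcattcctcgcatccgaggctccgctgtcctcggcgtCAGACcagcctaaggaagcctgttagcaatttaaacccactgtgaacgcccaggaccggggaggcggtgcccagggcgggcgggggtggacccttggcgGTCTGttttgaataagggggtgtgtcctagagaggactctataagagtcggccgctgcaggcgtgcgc

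Id2 held GGCGCC once, at position -231, and Id3 held CAGAC once on each strand, at -167 and -68, where a position is that of the leftmost base in the printed direction and the first base of the gene is 0. None of the searched letters occurred in these windows of Nodal and Bmp4. Of the other members with a promoter in the table used (7 of the 10 in all), Tdgf1 held AATNNACA 2 times, at -127 and -101, with a CAGAC between them at -113, Bmpr1a held GGCGCC once and Smad1 held none of the searched letters. Among 32851 promoter windows of the same length, 9.59% held GGCGCC, 42.2% CAGAC and 10.9% AATNNACA. A match describes these letters only. Bases outside the windows were not searched, so the lack of a match holds for these windows alone.

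Signals were MAS5 intensities that the authors had scaled, so that the median per array lay between 34.2 and 39.8. On each array the highest of 19 bacterial and yeast control probe sets, between 9.1 and 17.2, was taken as background, and a signal is called above background where it exceeded that level. The null lines showed the loss of the targeted gene that could be read: H1f2 gave 70 and 68.2 in wild-type cells, and its 4 null values ran from 11.1 to 14.4 (log2 change -2.3, limma adjusted p = 0.00119), and since 2 of those 4 values were not above background, the background limits the size of this change. The probe sets of H1f3 and H1f4 were not above background on any array and check nothing. All 8 embryonic stem cell markers, Pou5f1, Nanog and Sox2 among them, were above background on every array. Changes are given on the log2(intensity + 2) scale, which understates those of dim genes, and were tested over 7453 probe sets whose mean exceeded 20.89 intensity units. In the average of the null lines 31 of these (0.416%) had an adjusted p under 0.05, a count that lay between 7 and 13 when any 1 array was left out, and the median change over all of them was -0.01.

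Of the 12 member probe sets tested, 0 passed in the average of the null lines, against the background of 0.416%. Before adjustment 2 of the 12 had a p under 0.05, both lower in the null cells, against 12.7% of all probe sets in either direction and 7.16% in that one. Of the 12 changes 11 were below 0, against 52.7% of all probe sets tested, and their median was -0.18. The 4 null arrays lay wholly below both wild-type arrays for 3 of the 12 (12.0% of all probe sets tested) and wholly above for 0 (11.0%). Members of 1 gene share a transcript and members of 1 pathway may move together, so these counts are descriptions and carry no test. Line by line, 0 of 12 passed against wild type in line 1 (background 0.134%) and 0 of 12 in line 2 (background 0.255%). In line 1 both arrays lay below wild type for 5 (Nodal, both Bmp4 probe sets, Bmpr1a and Id2; 20.6% of all probe sets) and above it for 0 (18.9%), and in line 2 below it for 5 (Nodal, Tdgf1, Bmp4 93456_r_at, Smad7 and Id2; 25.2%) and above it for 1 (Id3; 23.6%). The comparisons of the lines share their wild-type arrays.

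**Figure D1:**
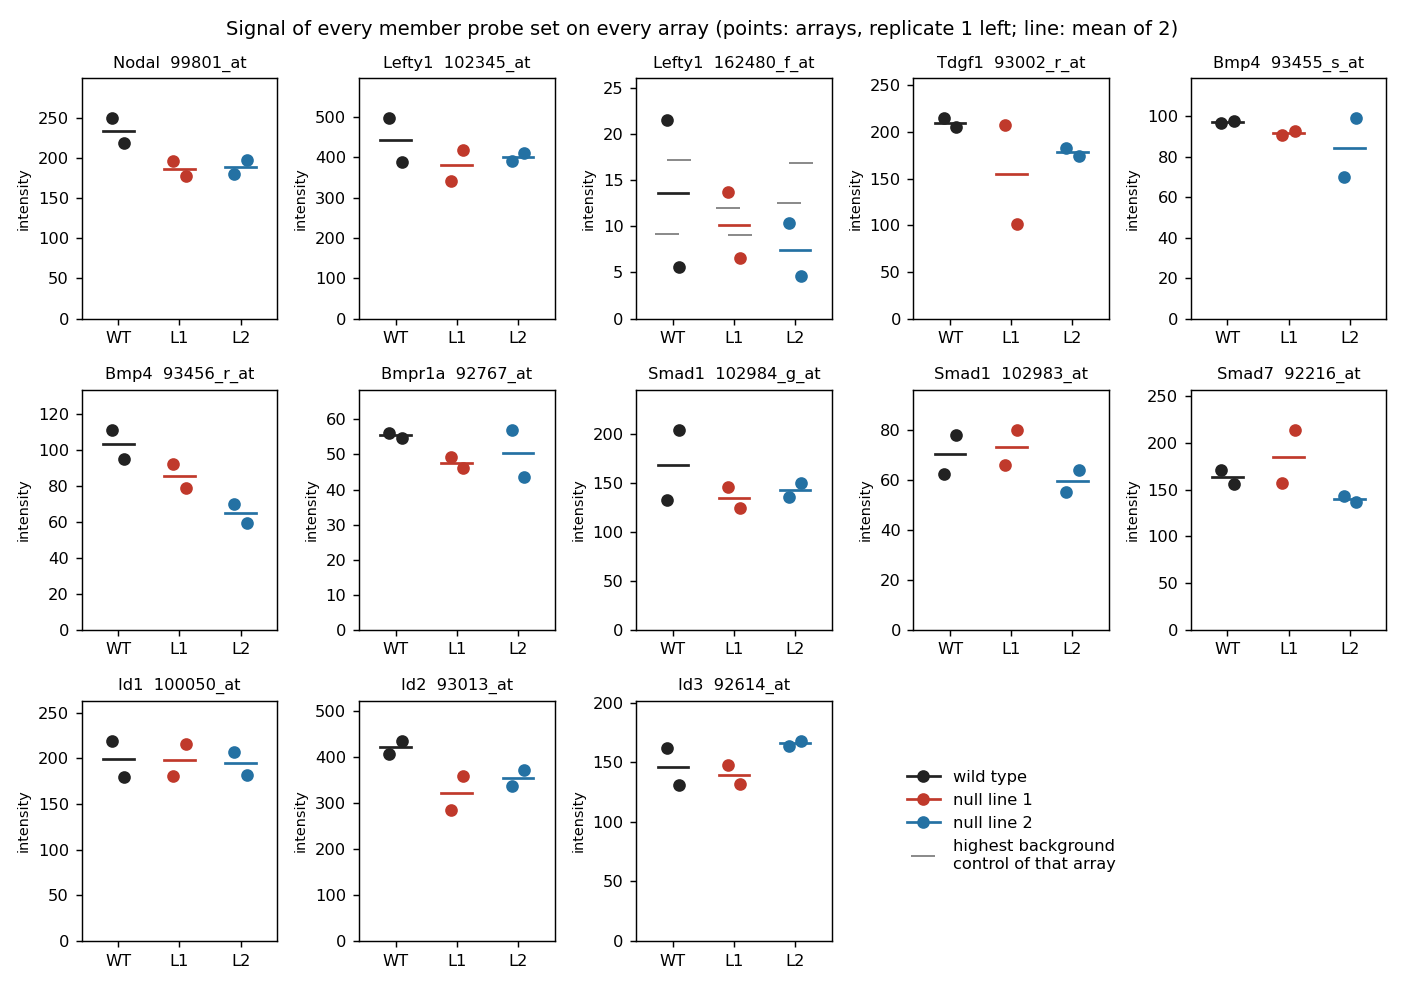
Signal in intensity units of the 13 member probe sets on the 6 arrays (points; replicate 1 on the left), with the mean of the 2 arrays of a line as a bar; WT is wild type, L1 and L2 the null lines, and axes start at 0. Nodal (99801_at), Bmp4 (93456_r_at) and Id2 (93013_at) have all 4 null points below both wild-type points, whereas the points of Id1 overlap, and Lefty1 162480_f_at lies near background, whose highest control is marked in grey for each array.

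The Nodal branch was measured by 4 probe sets. Nodal, the ligand, gave 248.8 and 218 on the wild-type arrays, 196.2 and 176.7 in line 1 and 179.6 and 196.7 in line 2. The null arrays were all lower than the wild-type arrays, the nearest pair being 218 and 196.7, and the null lines overlapped each other. Means were 233 ± 21.8 (SD, n = 2) in wild-type and 187 ± 10.6 (SD, n = 4) in null cells, a log2 change of -0.31 ± 0.12 (SE) with a 95% interval from -0.61 to -0.02 (limma adjusted p = 0.368). The change was almost equal in the lines, at -0.32 in line 1 and -0.31 in line 2, and the difference between them was -0.01 with an interval from -0.35 to 0.33. Nodal had the lowest spread between arrays of a line among the members, an SD of 0.112 on the log2 scale where the median over all probe sets tested was 0.163. Without the second or the first wild-type array the change was -0.41 or -0.22.

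Lefty1, a target of Nodal signals that encodes an inhibitor of Nodal, gave 495.9 and 388.7 in wild-type cells with probe set 102345_at, 340.4 and 418.4 in line 1 and 389.4 and 409.4 in line 2. The second wild-type array lay inside the range of the null arrays, so the groups overlapped. The log2 change was -0.18 ± 0.15 (SE, limma adjusted p = 0.667), with an interval from -0.55 to 0.19, and without the first wild-type array it was 0.00. A second probe set of Lefty1, 162480_f_at, was under the filter and not tested; its suffix marks probes that can match a family of transcripts. It gave 21.5 and 5.6 in wild-type cells, 13.7 and 6.6 in line 1 and 10.3 and 4.6 in line 2, and was above background on 2 of the 6 arrays, so it says nothing of the order of the lines.

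Tdgf1, the Nodal co-receptor, was read by 93002_r_at, a probe set of the design class with relaxed probe rules. It gave 214.5 and 205.2 in wild-type cells, 208 and 101.5 in line 1 and 182.7 and 174.7 in line 2. One array of line 1 lay between the wild-type arrays while the other had the lowest signal of all, and both arrays of line 2 lay below both wild-type arrays. The spread between arrays of a line (SD 0.418 on the log2 scale) was the widest among the members and exceeded that of 93.3% of all probe sets tested. The log2 change was -0.38 ± 0.27 (SE, limma adjusted p = 0.612), with the widest interval of the members, from -1.04 to 0.29. It was -0.12 without the second array of line 1 and -0.63 without the first.

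In the BMP branch, the ligand gene Bmp4 was measured by a pair of probe sets that did not give the same picture. The suffix of 93456_r_at marks the design class with relaxed probe rules, as for Tdgf1. With this probe set Bmp4 gave 111.2 and 95.1 in wild-type cells, 92.1 and 78.6 in line 1 and 69.8 and 59.5 in line 2. The 3 groups did not overlap, with wild type highest and line 2 lowest. The log2 change in the average of the null lines was -0.46 ± 0.14 (SE), with an interval from -0.80 to -0.13 (limma adjusted p = 0.274), and this was the lowest value among the members. In line 2 it was -0.66 ± 0.16 (SE), with an interval from -1.05 to -0.27 and the smallest adjusted p of any member comparison (limma adjusted p = 0.189), and in line 1 -0.27 ± 0.16 (SE, limma adjusted p = 0.634). The difference between line 1 and line 2 was 0.39 (limma adjusted p = 0.627).

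With the other Bmp4 probe set, 93455_s_at, whose suffix marks probes that can match more than 1 transcript, the signals were 97 and 97.7 in wild-type cells, 91 and 92.9 in line 1 and 70 and 99 in line 2. The arrays of line 2 lay on either side of the wild-type arrays, so here the groups overlapped. The log2 change was -0.15 ± 0.16 (SE, limma adjusted p = 0.743), and it was -0.03 without the first array of line 2 and -0.27 without the second. Its interval, from -0.53 to 0.23, overlaps that of 93456_r_at.

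Bmpr1a, a type I BMP receptor, gave 56.2 and 54.7 in wild-type cells, 49.2 and 46.2 in line 1 and 57.1 and 43.6 in line 2. Both arrays of line 1 were lower than wild type, and those of line 2 enclosed it. The log2 change in the null average was -0.18 ± 0.14 (SE, limma adjusted p = 0.633), with an interval from -0.51 to 0.16, and it was -0.27 without the first array of line 2 and -0.08 without the second. Of the receptor's substrates, Smad1 gave 132.5 and 204.9 in wild-type cells with its brighter probe set, 102984_g_at, 146.2 and 124.3 in line 1 and 135.8 and 149.8 in line 2. The wild-type arrays were farther apart than all null arrays, and the sign of the change (-0.25 ± 0.19, SE, limma adjusted p = 0.637) rested on them, since it was 0.06 without the second wild-type array and -0.56 without the first.

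The other Smad1 probe set, 102983_at, gave 62.6 and 77.9 in wild-type cells, 66.1 and 80.2 in line 1 and 55.3 and 64.2 in line 2. Its line 1 arrays overlapped wild type and lay above those of line 2. The change in the null average was -0.08 ± 0.15 (SE, limma adjusted p = 0.861).

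Smad7, an inhibitory Smad that blocks the receptors and is itself a target of these signals, gave 170.8 and 156.3 in wild-type cells, 156.6 and 214.2 in line 1 and 142.9 and 136.9 in line 2. One array of line 1 was the highest of all, while both arrays of line 2 were the lowest. The log2 changes had opposite signs, 0.16 in line 1, whose arrays overlapped wild type, and -0.22 in line 2 (limma adjusted p = 0.813 and 0.633). They left -0.03 ± 0.15 (SE) in the average. Without the second array of line 1 the change in that line was -0.06. The difference between line 1 and line 2, 0.38 ± 0.18 (SE), with an interval from -0.05 to 0.81, did not pass (limma adjusted p = 0.636). No member passed between the null lines, where 0.0268% of all probe sets did, and the median over the 12 was -0.04. The arrays of line 1 lay wholly above those of line 2 for 3 of the 12, Bmp4 93456_r_at, Smad1 102983_at and Smad7 (18.9% of all probe sets), and wholly below for 1, Id3 (20.2%).

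The 3 Id genes, targets of BMP signals, were read by 1 probe set each. Id2 gave 407.6 and 436 in wild-type cells, 285.9 and 358.9 in line 1 and 337.6 and 372.7 in line 2. All null arrays were lower than both wild-type arrays, with means of 339 ± 38.1 (SD, n = 4) and 422 ± 20.1 (SD, n = 2). The log2 change was -0.32 ± 0.14 (SE), with an interval from -0.65 to 0.01 (limma adjusted p = 0.407). It was -0.39 in line 1 (limma adjusted p = 0.512) and -0.25 in line 2, and stayed between -0.40 and -0.24 when any 1 array was left out.

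Id1 gave 219.2 and 179.5 in wild-type cells, 181 and 215.9 in line 1 and 207.2 and 181.9 in line 2. In each of the 3 lines of cells 1 array was clearly higher than its partner, the groups overlapped throughout, and the means were 199 ± 28.1 (SD, n = 2) and 196 ± 17.7 (SD, n = 4). The log2 change was -0.02 ± 0.15 (SE, limma adjusted p = 0.972), with an interval from -0.37 to 0.33. Id3 gave 162.1 and 131 in wild-type cells, 147.9 and 131.5 in line 1 and 163.7 and 168.2 in line 2. The arrays of line 2 lay just above wild type and those of line 1 inside it. The log2 change was 0.06 ± 0.13 (SE, limma adjusted p = 0.889), the sole positive value among the 12, with an interval from -0.26 to 0.38. The difference between Id2 and the other Id genes in response was not tested.

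**Figure D2:**
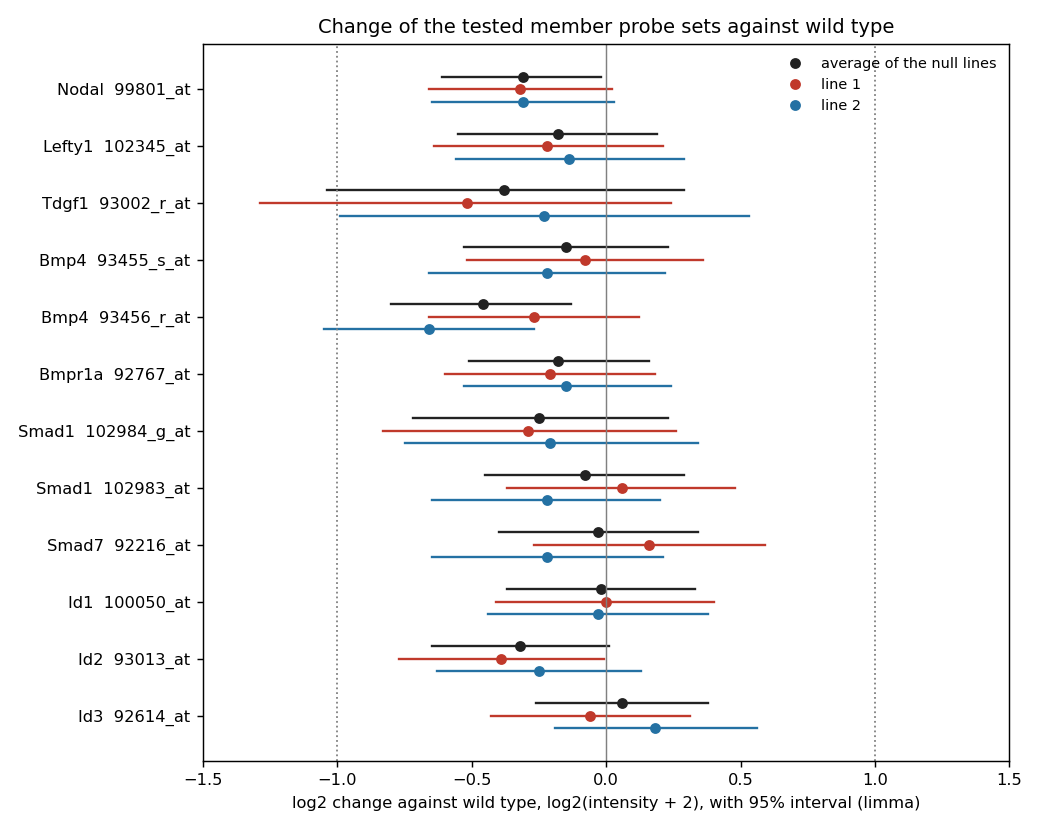
Log2 change against wild type of the 12 member probe sets tested, on the log2(intensity + 2) scale, for the average of the null lines, line 1 and line 2, with 95% intervals from limma; dotted lines mark a 2-fold change. Points of the null average lie between -0.46 and 0.06, and the intervals of Nodal and of Bmp4 93456_r_at in the null average end below 0 before adjustment for the number of probe sets.

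Markers of other cells that such cultures can hold had lower summed signals on the same null arrays that gave lower Nodal, Id2 and Bmp4 (93456_r_at only). None of those markers tested passed, and a few bright genes made up most of each difference. Summed over 13 genes on the array, feeder fibroblast markers ran from 2740 to 2810 in wild-type cells and from 2080 to 2390 in null cells, with Tagln at 1320 and 1030, Acta2 at 561 and 345, Col1a1 at 158 and 160 and Col1a2 at 219 and 238 (means of wild-type and null arrays). Extraembryonic endoderm markers (12 genes) gave between 865 and 1060 against 742 and 831. Sparc was at 602 and 458, Sox17 at 22 and 23, Sox7 at 22.9 and 22.5 and Cubn at 21.2 and 21.3. Foxa2 and Hnf4a were not above background on any array. Mesoderm and primitive streak markers (8 genes) gave between 304 and 344 against 243 and 294. Hand1 was at 119 and 89.6, Wnt3 at 103 and 77.8 and Tbx6 at 35.2 and 35.7. Gsc and Mesp1 were not above background on any array. Embryonic stem cell markers (8 genes) gave between 5450 and 5530 against 5800 and 6250. Pou5f1 was at 1530 and 1670, Fbxo15 at 163 and 341, Nanog at 1330 and 1250 and Sox2 at 1410 and 1380. Of the tested genes on these lists, 5 of 7, 5 of 8, 3 of 4 and 2 of 8 had changes below 0, against 52.7% of all probe sets tested. Only 1 passed, Fbxo15 among the stem cell markers. The part of these cells in the values of Nodal, Bmp4 and Id2 was not tested, and fewer cells of a type and less RNA per cell cannot be told apart in such bulk samples.

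**Figure D3:**
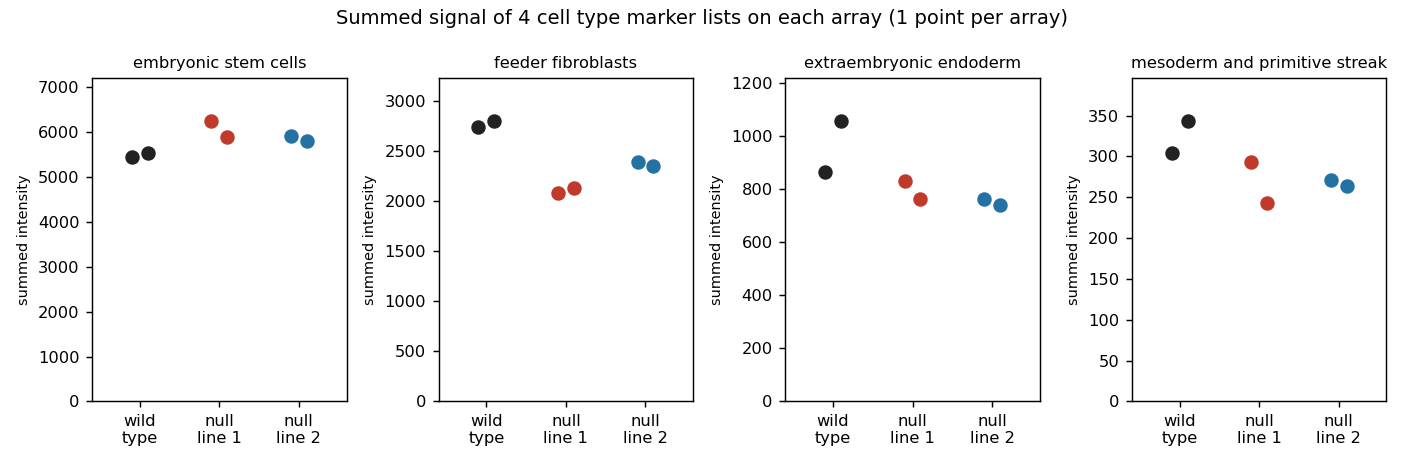
Summed intensity of the markers of 4 cell types on each of the 6 arrays (points), with axes from 0. The feeder fibroblast sum runs from 2740 to 2810 in wild-type and from 2080 to 2390 in null cells, the stem cell sum from 5450 to 5530 and from 5800 to 6250.

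The wider pathway was read from a list of 106 further genes in 7 roles, each by its brightest probe set. Of these, 25 had no probe set of their own in the annotation, 34 were under the filter and 47 were tested. None of the 47 passed in the null average, in either line or between the lines (limma, adjusted over all probe sets), and 6 had an unadjusted p under 0.05 in the null average, against 12.7% of all probe sets tested. Changes were below 0 for 32 and above 0 for 15, with a median of -0.06, where 52.7% of all probe sets tested were below 0. Of the receptors of both branches 7 were tested, with a median of 0.00, among them Acvrl1 at 0.18 (its other probe sets were at -0.26 and 0.04), Bmpr2 at -0.23 and Eng at -0.04. Acvr1b, an activin and Nodal receptor, averaged 0.41, but its lines lay apart: it gave 30.7 and 10 in wild-type cells, 11.8 and 17.7 in line 1 and 36 and 44.8 in line 2, with changes of -0.26 in line 1 and 1.09 in line 2 and a difference between line 1 and line 2 of -1.35 ± 0.46 (SE, limma adjusted p = 0.627). Its values of 10 and 11.8 were not above background. Among the other ligands, Inhbc, an activin subunit, had a mean of 45.5 in wild-type cells against 33.1 (-0.47 ± 0.18, SE, limma adjusted p = 0.353). The Inhbc change was -0.71 in line 1 and -0.23 in line 2, whose second array, at 46.7, was the highest of the 6. Tgfb2 and Inhba were at -0.27 and -0.36, and ran from -0.49 to -0.05 and from -0.59 to -0.13 when any 1 array was left out. Tgfb1 gave 24.2 and 8.5 in wild-type cells, 37.8 and 43.8 in line 1 and 37.3 and 7.1 in line 2, of which 8.5 and 7.1 were not above background, and its change of 0.78 was 0.12 without the second wild-type array and 1.44 without the first. Of the BMP ligands 2 were tested, Gdf9 at 0.17 and Bmp7 at -0.02 (2 of its 6 arrays not above background), and the other 10 on the array were under the filter.

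Genes that process or bind the ligands had the lowest median of the roles, -0.21 over 10 tested, with 8 below 0 (52.7% of all probe sets tested). Furin, a protease that cleaves the precursors of Nodal and Bmp4, gave 229.5 and 265.1 in wild-type cells, 181.6 and 185.1 in line 1 and 170 and 158.2 in line 2. All null arrays were lower than both wild-type arrays, and the log2 change of -0.50 ± 0.12 (SE) had the smallest adjusted p of the list (limma adjusted p = 0.183). Bmp1, a protease that cleaves the BMP antagonist chordin, measured 81.9 and 59.6 (-0.46 ± 0.17, SE, limma adjusted p = 0.336; -0.36 with its other probe set). Twsg1, a BMP-binding protein, measured 82.5 and 65.4 (-0.33, adjusted p = 0.434), and Fstl1, a follistatin-like protein, 114 and 79.2 (-0.51, adjusted p = 0.465). For Furin, Bmp1 and Twsg1 the null arrays all lay below wild type. Over the whole list this held for 5 of the 47 genes tested and the reverse for 2, against 12.0% and 11.0% of all probe sets tested.

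Among 10 further Smads and partners the median was -0.07. Skil, which encodes SnoN, a repressor of Smad complexes and a target of activin and Nodal signals, was on the higher side: it gave 22 and 14 in wild-type cells, 24.8 and 28.9 in line 1 and 29.1 and 39.6 in line 2, with 0.72 ± 0.21 (SE) as the log2 change and an adjusted p of 0.261 with limma. Its second wild-type array, at 14, was below that array's highest background control of 17.2. Smad6, Drap1 and Stub1 were at -0.22, -0.25 and -0.17, and Stub1 was at -0.01 in line 1 and -0.33 in line 2. The median over 8 further target genes was -0.16. The BMP target Msx2 measured 45 and 28.1 (-0.64 ± 0.21, SE, limma adjusted p = 0.302). Ccn2, a secreted matrix protein that TGF-beta induces, measured 351 and 280 (-0.34, limma adjusted p = 0.327), with -0.57 in line 1 and -0.12 in line 2. Gata2 measured 59.2 and 48.8 (-0.30, limma adjusted p = 0.508). The Gata2 change was -0.58 in line 2 and -0.01 in line 1, whose arrays overlapped wild type. Id4, the remaining Id gene, lay on the other side, with 29.4 and 30.4 in wild-type cells and between 33.8 and 39.4 on the null arrays (0.25 ± 0.11, SE, limma adjusted p = 0.398). The partners of the Id proteins were near 0, with Tcf4 at -0.13, Tcf12 at -0.10, Hes1 at 0.00 and Tcf3 at 0.00.

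**Figure D4:**
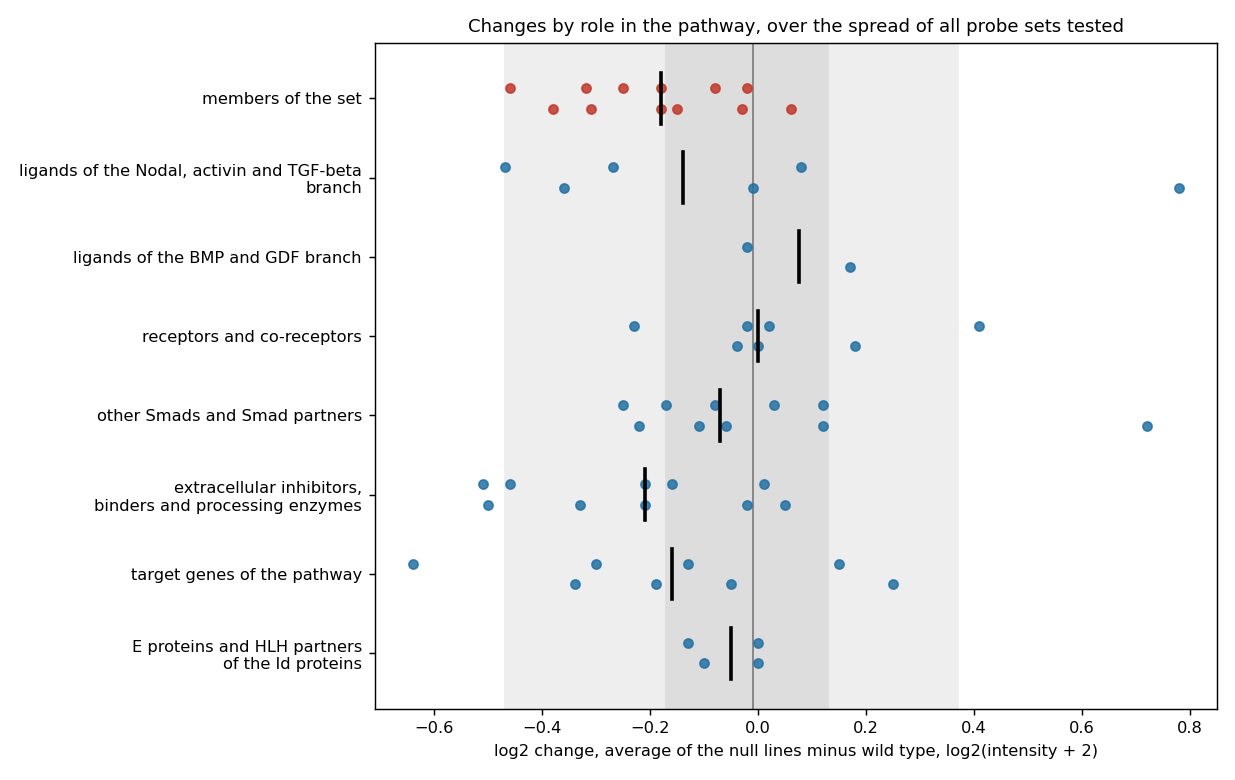
Log2 change in the average of the null lines against wild type, on the log2(intensity + 2) scale, of the 12 member probe sets (red) and the 47 further pathway genes tested (blue), by role; black bars are medians, the shading holds the middle 50% and 90% of all 7453 probe sets tested (from -0.17 to 0.13 and from -0.47 to 0.37), and the grey line is their median. Every member point lies within the wider band, and the blue point farthest to the right, at 0.78, is Tgfb1, for which 2 of the 6 arrays were not above background.

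The genes whose profile over the 6 arrays was most like that of Nodal, by the root mean square difference of log2 values after each gene was centred on its own mean, were Pcyox1, Tpd52l1 and Rnh1, with differences of 0.035, 0.036 and 0.044 where the median over 5653 genes was 0.238. For Id1 they were Akap8l, Smdt1 and Maz, at 0.032, 0.037 and 0.038 where the median was 0.215. With so many genes and 6 arrays, close profiles are easy to find, and these names describe the arrays only.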

How the data were processed

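Signals are intensities on a linear scale, 1 per probe set and array, which the authors deposited after MAS5 (submitters' processing notes, no version given) already scaled: the trimmed mean of each array lay between 99.5 and 99.6. Gene names come from the annotation of the platform, with older symbols updated through a RefSeq gene table (GRCm38.p6), which held 10817 of the 10833 probe sets listed with 1 gene. From these values, log2(intensity + 2) was fitted with a mean per line over all 6 arrays in limma 3.58.1 (R 4.3.3; lmFit and eBayes, 3 residual and 3.17 prior degrees of freedom), without the 66 control probe sets and those with a mean under the 40th percentile (20.89). The 2 that was added is the rounded 10th percentile of all values. P-values were adjusted by Benjamini-Hochberg over 7453 probe sets, with a threshold of 0.05. An exact permutation of 2 arrays and 4 has 0.0667 as its smallest two-sided p, so the adjusted values lean on the model. The procedure was tested on simulated data.

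The members and lists were chosen with earlier results of these data known. Genes beyond the members were named by rule: up to 4 with the smallest p in each role of the pathway list, every gene past the threshold, and the 3 most alike profiles for Nodal and Id1. Names given beside these (markers) come from the marker lists. Other alternatives tried were another pseudocount, no filter, quantile normalization, a spread that follows the signal, the experiment number as a block and leaving out each array. For the block, differences between replicate 1 and replicate 2 of a line correlated across probe sets between lines with r from 0.053 to 0.0948. Plots used matplotlib 3.10.9 (Python 3.11.15).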

Additional observations from a re-analysis of the deposited data

How the results depend on the processing

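None of the 12 member probe sets passed in any comparison under any of the 11 alternatives, and none of the further pathway genes did in the null average, the comparison in which that list was recomputed: the smallest adjusted p with limma was 0.111 over the 528 values of members in all comparisons and 0.0771 over the 286 values of named pathway genes in the null average. Taking the probe set with the smallest p for each pathway gene gave no call either. Of the members, between 9 and 11 had changes below 0 in the null average, and between 10 and 12 intervals lay within 2-fold. The 12 tested were above background on all 6 arrays and Lefty1 162480_f_at on 2 of 6, and the number of arrays limits the precision. Where a line was left with 1 array, that array was assumed to vary like the others. Differences between replicate numbers correlated weakly between lines (no correlation above 0.0948), which cannot exclude a weak pairing of the arrays. The fit with the replicate block changed no member call.

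Counts over all probe sets did move. In the null average, where 31 passed, 54 did with a pseudocount of 16, 8 without the filter, 101 with a spread that follows the signal, 14 with the replicate block and between 7 and 13 when 1 array was left out. For line 1 (10) the count was 5 without the filter, 42 with a spread that follows the signal and between 4 and 9 without 1 array. For line 2 (19) it was 31 with a pseudocount of 16, 5 without the filter, 92 with a spread that follows the signal and between 0 and 10 without 1 array. Between the lines (2) it was 1 with a pseudocount of 16 or quantile normalization, 0 without the filter or with the replicate block, and 0 without any 1 array.

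Some changes took the other sign in some alternatives, none of them called. Not all of them were near 0: Acvr1b was at 0.41 in the null average and Tdgf1 at -0.29 between the lines. Under quantile normalization the changes that took the other sign were Id1 between the lines (0.00), Bmp7 (0.09) and Tcf3 (0.02). With 1 array left out, the ranges in the null average were -0.56 to 0.06 and -0.24 to 0.07 for the 2 probe sets of Smad1, -0.14 to 0.08 for Smad7, -0.16 to 0.12 for Id1, -0.09 to 0.21 for Id3, -0.87 to 0.84 for Bmp7, -0.31 to 1.14 for Acvr1b, -0.52 to 0.05 for Bmpr2, -0.14 to 0.06 for Eng, -0.23 to 0.02 for Tcf12, -0.05 to 0.06 for Hes1 and -0.17 to 0.16 for Tcf3. In line 1 they were -0.60 to 0.02 and -0.09 to 0.21 for Smad1, -0.06 to 0.39 for Smad7, -0.15 to 0.14 for Id1 and -0.21 to 0.09 for Id3. In line 2 they were -0.31 to 0.04 for Lefty1, -0.46 to 0.02 for Bmp4 93455_s_at, -0.33 to 0.04 for Bmpr1a, -0.52 to 0.10 for Smad1 102984_g_at and -0.17 to 0.11 for Id1. Between the lines they were -0.09 to 0.06 for Nodal, -0.23 to 0.07 for Lefty1, -0.80 to 0.22 for Tdgf1, -0.10 to 0.38 for Bmp4 93455_s_at, -0.25 to 0.12 for Bmpr1a, -0.20 to 0.04 for Smad1 102984_g_at, -0.10 to 0.15 for Id1 and -0.31 to 0.02 for Id2. Without a change of sign, Fstl1 ran from -0.82 to -0.20, Smad6 from -0.36 to -0.07, Drap1 from -0.44 to -0.05, Gata2 from -0.47 to -0.13, Tcf4 from -0.23 to -0.03, Gdf9 from 0.01 to 0.32, Acvrl1 from 0.05 to 0.31, Skil from 0.42 to 1.01 and Msx2 from -0.86 to -0.42 in the null average. The cause was not tested.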
